A study of Mus musculus with 30 samples.

Results

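The mitosis and G2/M genes described here are 47 mouse genes that carry a cell from late G2 through chromosome segregation to division. They were chosen by symbol, with earlier results of these data known, and taken by Ensembl identifier from a count table of 32361 genes. All 47 were in the table, and all 47 were among the 15119 genes with enough counts to be tested. By role they are 6 mitotic cyclins, CDK1 and their regulators, 5 mitotic kinases, 4 subunits of the chromosomal passenger complex, 8 genes of the spindle checkpoint and anaphase control, 6 kinetochore and centromere genes, 6 spindle motors and microtubule proteins, 6 genes of the central spindle and cytokinesis, and 6 genes of chromosome structure.

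Entry into mitosis is driven by the kinase CDK1 bound to a cyclin, and exit from it by the anaphase-promoting complex, a ubiquitin ligase that destroys the cyclins and frees the sister chromatids. The genes for this machinery are transcribed late in the cycle, from promoters that the MuvB complex binds with B-MYB and FOXM1, and the same complex joined to retinoblastoma family proteins keeps them silent in resting cells. Bone marrow-derived macrophages are grown from dividing precursors with the growth factor M-CSF, and a share of them still divides in culture. Stimulation of Toll-like receptors is known to halt that division.

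The study measured RNA in 30 libraries of bone marrow-derived macrophages, 3 in each of 10 groups. Cells came from C57BL/6J mice that were wild type (WT) or Ticam2-/- (KO), with 3 animals of each genotype given as the replicates. Ticam2 encodes TRAM, the adaptor that carries TLR4 signals to TRIF. Each genotype was left untreated or received lipopolysaccharide (LPS, a TLR4 ligand) at 10 ng/mL or lipoteichoic acid (LTA, a cell wall component of gram-positive bacteria known as a TLR2 ligand) at 100 ng/mL, for 2 h or 6 h. All 30 cultures shared the L929-conditioned medium that supplies M-CSF, the red cell lysis and the reseeding before treatment. The labels do not say which libraries came from the same animal. The 2 ligands were used at different doses, and in such bulk RNA fewer dividing cells and less RNA per dividing cell cannot be told apart.

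Untreated and 6 h libraries contained 10641070 to 13521660 counts, of which 5142 to 34900 fell on the 47 genes. The 12 libraries of 2 h were a separate, shallower set of 1334784 to 2658329 counts, with 1990 to 4446 on the genes, so treatment for 2 h and library set cannot be told apart in any comparison of 2 h with untreated cells. Ticam2 was at 10.3 to 21.01 counts per 1e6 (CPM) of the library total in the WT libraries and at 0.41 to 5.27 in the KO libraries. All 15 macrophage markers were detected in both sets, while 10 erythroid markers summed to 5600 to 7733 CPM in the untreated and 6 h libraries and to 0 to 0.69 in the 2 h libraries. Summed fibroblast markers were at 4.38 to 7.96 CPM in the former and 190 to 346 in the latter. Levels of single genes below are CPM scaled by edgeR's TMM factors, which averaged 0.699 in WT cells after LPS for 6 h and 0.748 after LTA for 6 h. With library totals in place of TMM factors the median of all genes moved by -0.66 and -0.58 (log2) in those comparisons with untreated WT cells, by -0.19 and -0.18 in KO cells, and by 0.54 and 0.44 between KO and WT cells after LPS and LTA. Where this scaling turned the direction of a gene named below, or the balance between all genes called higher and lower, both values are given. Exons of 13 of the 47 genes overlap those of another annotated gene.

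A RefSeq promoter sequence (GRCm38.p6, 250 bases before to 50 after the start) was at hand for 39 of the 47 genes. CCAAT, the box bound by NF-Y, was searched for on both strands, as were TTTGAA and TTCGAA, the spellings of the cell cycle homology region (CHR) that MuvB binds. At least 1 CCAAT stood in 30 of the 39 promoters (76.9%), against 37.9% of 27025 promoters and 38.9% of the 9803 promoters of tested genes. A CHR spelling stood in 29 of them (74.4%), against 19.4% and 14.0%. Both were present in 26 (66.7%), against 7.70% and 5.94%. The shares were also high in 67 promoters of other mitosis genes, listed by name: 62.7% held a CCAAT, 65.7% a CHR spelling and 44.8% both. The E2F spellings TTTCCCGC, TTTCGCGC, TTTGCCGC and TTTGGCGC were found in 2 of the members' promoters (5.13%), against 2.32% of all promoters and 4.15% of those of tested genes. They were found in 31.7% of 41 promoters of DNA replication genes, of which 19.5% held a CHR spelling. In 27 of the genes a CHR spelling lay within 60 bases of the start, and 65 of 70 CCAAT matches lay before it. A match is a run of letters and not a measured binding site. In 27 of the 39 promoters, bases just after the RefSeq start were found near the beginning of a GENCODE transcript of the gene. A match or its absence thus holds for the RefSeq start used.

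The last 100 bases before the start are shown for 6 genes with the matched letters in capitals, each read 5′ to 3′ on the gene's strand. ATTGG is CCAAT on the other strand, and TTCAAA is TTTGAA on the other strand. The first 3, the mitotic kinase gene Cdk1, the spindle motor gene Kif11 and the topoisomerase gene Top2a, carry both elements, as did 26 of the 39 promoters. In these 3 the CHR spelling lies before the start, as did 19 of the 39 CHR matches over all genes.
Cdk1 chr10:69352913-69353012 (minus strand): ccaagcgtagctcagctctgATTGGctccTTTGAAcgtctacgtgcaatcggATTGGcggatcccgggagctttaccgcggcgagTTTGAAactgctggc
Kif11 chr19:37376282-37376381 (plus strand): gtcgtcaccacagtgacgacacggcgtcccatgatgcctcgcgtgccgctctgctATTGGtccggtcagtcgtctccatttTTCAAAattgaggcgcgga
Top2a chr11:99024190-99024289 (minus strand): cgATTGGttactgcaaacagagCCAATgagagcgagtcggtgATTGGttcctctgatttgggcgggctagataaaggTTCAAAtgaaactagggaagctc
The other 3 lack a CHR spelling in the whole window and belong to genes whose response differed from that of most members: Cks2, a small CDK-binding protein, Mad2l1, a spindle checkpoint protein, and Cenpe, a kinetochore motor. They do not stand for all 10 genes without a CHR spelling. Birc5, Ccnb1, Melk, Ncaph, Nek2, Nuf2 and Nusap1 also lack one and fell at least 2-fold in WT cells after LPS for 6 h. Mki67, Ube2c, Ccnb2 and Kif4 hold one and fell less than 2-fold.
Cks2 chr13:51645132-51645231 (plus strand): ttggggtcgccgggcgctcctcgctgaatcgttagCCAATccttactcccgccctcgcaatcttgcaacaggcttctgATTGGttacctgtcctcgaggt
Mad2l1 chr6:66535121-66535220 (plus strand): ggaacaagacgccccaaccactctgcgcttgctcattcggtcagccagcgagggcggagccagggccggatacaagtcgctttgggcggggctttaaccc
Cenpe chr3:135212463-135212562 (plus strand): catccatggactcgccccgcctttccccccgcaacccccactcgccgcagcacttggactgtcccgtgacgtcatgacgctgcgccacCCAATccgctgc
Cdk1, Top2a and Cks2 held 2 or more CCAAT boxes in these stretches, Cks2 without a CHR spelling. Kif11 and Cenpe had a single CCAAT, and the Mad2l1 stretch held none of the motifs searched. GENCODE places the start of Mad2l1 at chr6:66535390, after the end of the window searched, so bases next to that start were not searched.

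**Figure D1:**
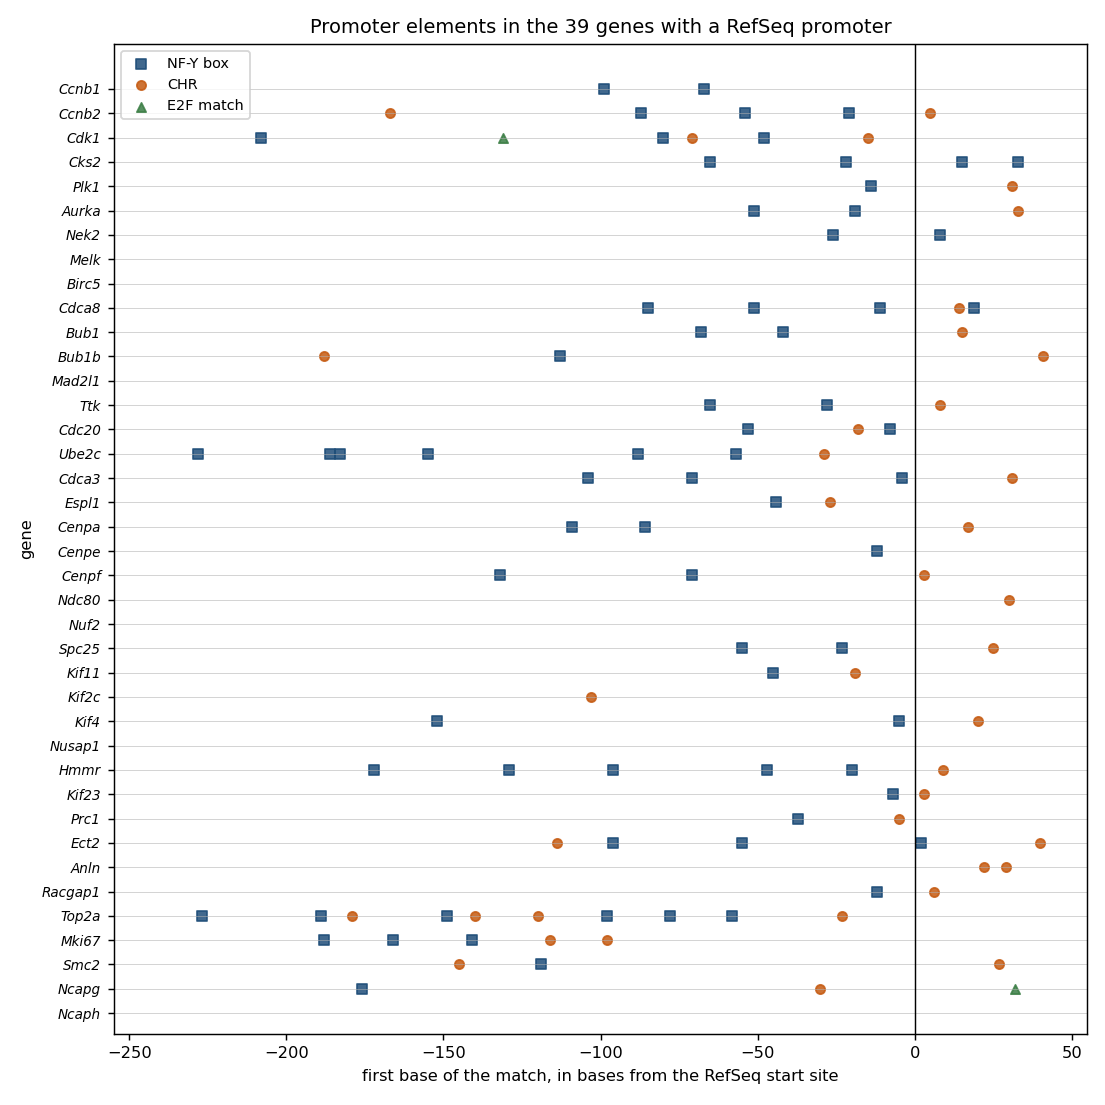
Position of each CCAAT box (NF-Y box), CHR spelling and E2F match in bases from the RefSeq start (0 on the horizontal axis) for the 39 genes with a promoter sequence. Matches crowd near the start, with CCAAT mostly before it and CHR at a median first base of 3, while 6 genes (Birc5, Mad2l1, Melk, Ncaph, Nuf2 and Nusap1) show no match.

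WT macrophages treated with LPS for 6 h had lost most of their mitotic transcripts. The summed level of the 47 genes was 1908 ± 13.1 CPM (SD, n = 3) in untreated WT cells and 611 ± 16.5 after LPS, 32.0% of the untreated level, or 19.8% by library totals. Of the 47 genes 46 fell, 0 rose and Cks2 did not pass the threshold (edgeR quasi-likelihood test, Benjamini-Hochberg adjusted p under 0.05 over all tested genes). Among all tested genes 36.1% were called lower and 36.6% higher, with a median log2 fold change of 0.03, against -2.45 for the 47 genes. By library totals the split of all called genes was 2450 higher and 9630 lower, in place of 5534 and 5452. With TMM factors the fall was at least 2-fold in 37 of the 47 genes. The shares of all tested genes given here and below are of calls at any size, not of 2-fold changes.

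**Figure D2:**
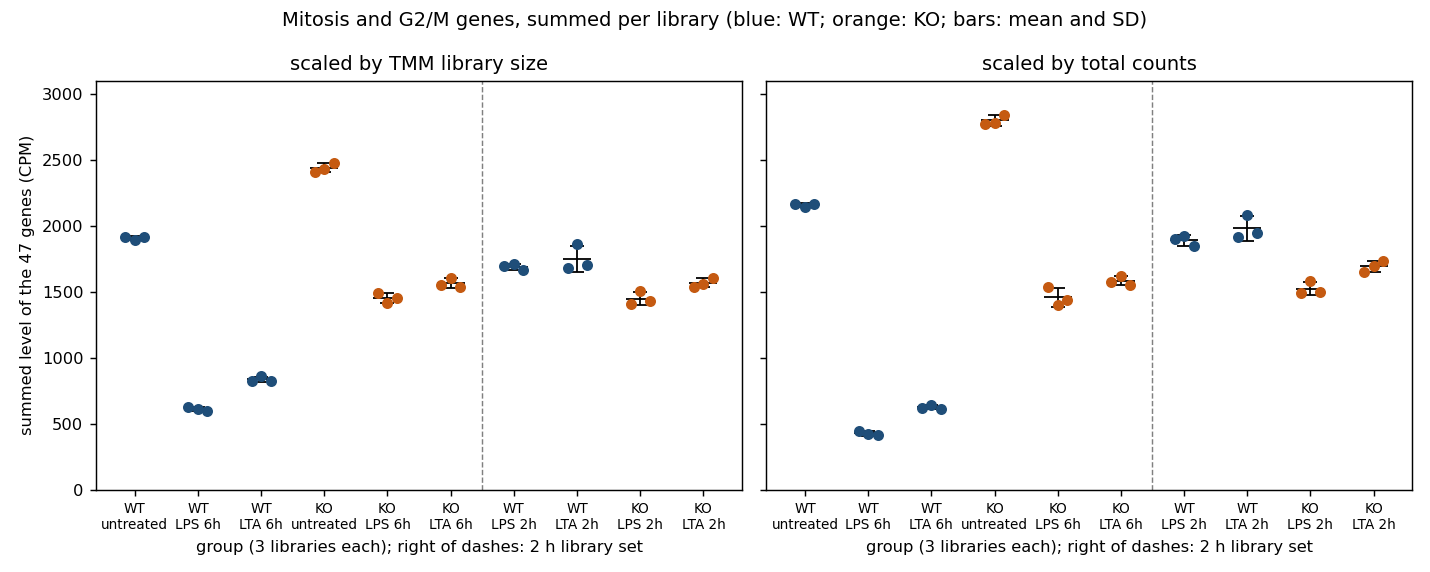
Summed level of the 47 genes in each of the 30 libraries (points; bars give the mean and SD of 3), in CPM scaled by TMM library size (left panel) and by total counts (right panel). Under both scalings the untreated KO libraries are highest and the WT libraries after LPS for 6 h lowest, and the 2 h groups right of the dashes come from the shallower library set.

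Among the mitotic cyclins and their regulators, Cdk1 (ENSMUSG00000019942, chr10:69335146-69352938), the kinase at the centre of mitotic entry, was at 89.3, 87.4 and 90.3 CPM in the 3 untreated WT libraries and at 28.2, 31.6 and 28.2 after LPS. The groups did not overlap, and the log2 fold change was -1.60 ± 0.06 (SE, as for all fold changes below). Cyclin A2 (Ccna2, chr3:36564865-36572150), which pairs with CDKs from S phase into early mitosis, went from 75.6, 72.4 and 71.5 CPM to 5.00, 4.34 and 5.64, a change of -3.87 ± 0.09. Cyclin B1 (Ccnb1), the partner of CDK1 in mitosis, fell by 1.60 ± 0.08, and cyclin B2 (Ccnb2) by 0.76 ± 0.08, so the 3 cyclin genes fell by unequal amounts. Foxm1, the transcription factor of G2/M genes, fell by 3.08 ± 0.12, from 22.5 to 24.99 CPM down to 2.48 to 3.05. Cks2 (ENSMUSG00000062248, chr13:51645232-51650660) stayed near its untreated level, at 71.4, 69.7 and 72.0 CPM before and 63.7, 66.8 and 68.3 after LPS. Its log2 fold change of -0.10 ± 0.06 was not called with TMM factors and was -0.80 by library totals. Exons of Ccna2 overlap those of Exosc9 on the opposite strand by 510 bases, and whether the counting used strand is not stated.

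The 5 mitotic kinases fell by a median of 2.99. Pbk (chr14:65805837-65817822), a kinase active in dividing cells, changed the most of all 47 genes, from 35.0, 34.3 and 35.4 CPM to 1.221, 2.34 and 2.59 (-4.07 ± 0.13). Aurora kinase A (Aurka), which matures the spindle poles, went from 19.7, 23.5 and 25.3 CPM to 5.25, 4.80 and 5.30 (-2.15 ± 0.14). Nek2, a centrosome kinase, went from 10.6, 9.81 and 11.8 CPM to 0.977, 1.05 and 1.13 (-3.33 ± 0.19). Polo-like kinase 1 (Plk1) fell by 2.30 ± 0.13 and Melk by 2.99 ± 0.17. None of the 5 had overlapping groups. How many of all tested genes had groups without overlap was not counted, for this or any other comparison.

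The chromosomal passenger complex holds aurora kinase B (Aurkb) on the centromere together with INCENP, survivin and borealin. Survivin (Birc5) was at 74.5, 70.4 and 71.0 CPM in untreated WT cells and at 13.4, 15 and 14.8 after LPS (-2.32 ± 0.07). Borealin (Cdca8) moved by the same -2.32 ± 0.08, from 69.8, 70.6 and 72.2 CPM to 13.9, 14.3 and 14.2. Aurkb fell by 3.53 ± 0.11, while the scaffold Incenp fell by 0.86 ± 0.11, less than 2-fold. The catalytic subunit and the scaffold of a single complex thus changed by unequal amounts.

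In the spindle checkpoint and anaphase group the 8 genes fell into a strongly and a weakly changed part. Bub1b (BUBR1), Ttk (MPS1) and Bub1, kinases and pseudokinases of the checkpoint, changed by -3.53 ± 0.14, -3.72 ± 0.24 and -2.25 ± 0.14. Separase (Espl1), the protease that cuts cohesin, fell by 3.25 ± 0.16, and Cdc20, the activator of the anaphase-promoting complex, went from 52.4, 50.1 and 51.0 CPM to 8.18, 10.7 and 9.13 (-2.45 ± 0.08). Ube2c, the ubiquitin-conjugating enzyme of that complex, went only from 66.5, 63.0 and 61.0 CPM to 49.7, 45.7 and 52.0 (-0.37 ± 0.06). Mad2l1 (MAD2), which holds CDC20 back until chromosomes are attached, went from 61.8, 61.9 and 64.5 CPM to 42.6, 50.4 and 49.8 (-0.39 ± 0.06). Both falls were called, and neither group pair overlapped. Ube2c shares 592 exon bases with Tnnc2 on the opposite strand.

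At the kinetochore, Cenpa, the histone variant that marks centromeres, was at 61.0, 58.4 and 61.0 CPM in untreated WT cells and at 14.5, 14.4 and 16.7 after LPS (-1.98 ± 0.08). Ndc80, Nuf2 and Spc25, subunits of the NDC80 complex that grips microtubules, fell by 3.10 ± 0.17, 2.69 ± 0.15 and 2.99 ± 0.13, and Cenpf by 3.22 ± 0.23. Cenpe again stood apart, at 24.0, 25.4 and 26.9 CPM before and 23.1, 17.9 and 16.2 after LPS (-0.42 ± 0.11), with the highest treated library just under the lowest untreated one.

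Of the spindle motors and microtubule proteins, Kif11 (EG5), which slides the spindle poles apart, went from 32.5, 33.2 and 31.6 CPM to 5.25, 5.98 and 4.74 (-2.61 ± 0.10), and the depolymerase Kif2c fell by 3.08 ± 0.15. Tpx2, the activator of aurora A on the spindle, went from 26.6, 25.7 and 28.3 CPM to 21.97, 19.8 and 17.7 (-0.44 ± 0.08). The chromokinesin gene Kif4 changed by -0.94 ± 0.15. Its exons overlap 832 bases of Pdzd11, which had 5196 counts over all libraries against 1626 for Kif4, so its value is uncertain.

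The 6 genes of the central spindle and cytokinesis fell by a median of 2.84, and all 6 fell at least 2-fold. Racgap1 and Kif23, the partners that form centralspindlin, changed by -2.46 ± 0.09 and -3.38 ± 0.11. Prc1, which bundles the midzone microtubules, went from 40.9, 38.9 and 38.9 CPM to 7.57, 8.32 and 8.004 (-2.31 ± 0.09). Ect2, which activates RhoA at the cell equator, fell by 3.15 ± 0.12, and the ring scaffold anillin (Anln) by 3.49 ± 0.14.

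Chromosome structure genes fell by unequal amounts. Top2a (chr11:98992943-99024189), the topoisomerase that untangles sister DNA, went from 114, 117 and 119 CPM to 32.4, 28.2 and 30.4 (-1.94 ± 0.07). The condensin I subunits Ncapg and Ncaph fell by 3.20 ± 0.18 and 2.87 ± 0.13, and the condensin ATPases Smc2 and Smc4 by 1.82 ± 0.09 and 0.97 ± 0.10. Mki67, the proliferation marker Ki-67, went only from 34.4, 35.0 and 35.8 CPM to 31.4, 26.6 and 24.1 (-0.36 ± 0.08).

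With TMM factors the 10 genes that fell less than 2-fold or were not called were thus Cks2, Mki67, Ube2c, Mad2l1, Cenpe, Tpx2, Ccnb2, Incenp, Kif4 and Smc4, which span 6 of the 8 roles. Of the 7 among them with a promoter sequence, 4 held a CHR spelling, against 25 of 32 among the genes that fell 2-fold or more. By library totals all 47 genes were called lower in this comparison, with a median of -3.15. The class of 10 genes and its split by CHR rest on TMM factors, and neither was drawn by library totals, which gave larger falls.

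**Figure D3:**
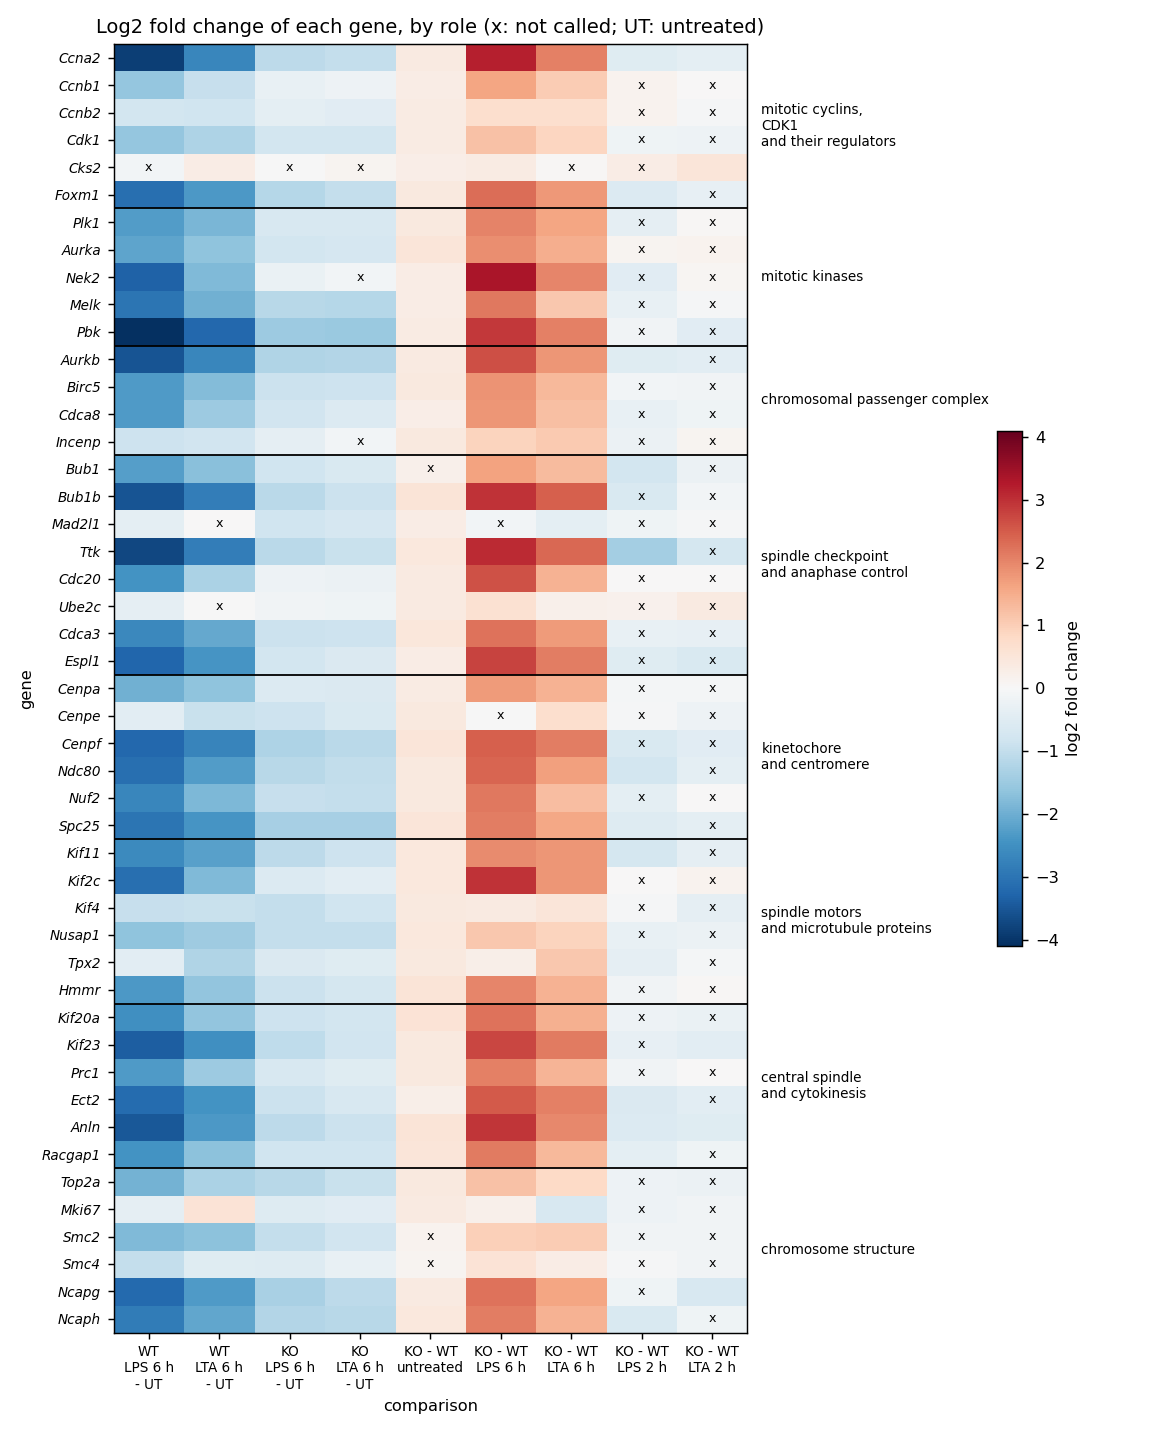
Log2 fold change of each of the 47 genes (rows, grouped by role) in 4 responses against untreated cells and 5 comparisons of KO with WT, scaled by TMM (colour; x marks a gene not called). The first column is nearly all deep blue and the third pale blue, and Cks2, Ube2c, Mad2l1, Cenpe, Tpx2 and Mki67 are pale in the first; the red of Mki67 and Cks2 in the second column turns to -0.04 and -0.28 by library totals, and the blue of Mad2l1 in the LTA 6 h genotype column to 0.04.

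LTA for 6 h lowered most of the same machinery in WT cells, by less, and left or raised a few genes. The summed level was 837 ± 21.5 CPM, 43.8% of the untreated level, or 29.0% by library totals. Of the 47 genes 43 fell, 2 rose and 2 were not called, with a median of -1.71, while 35.9% of all tested genes were called lower and 35.4% higher (5428 and 5348 genes, or 9414 and 2375 by library totals). Here too the fall was at least 2-fold in 37 genes.

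Mki67 was at 46.99, 57.5 and 50.1 CPM after LTA against 34.4 to 35.8 CPM untreated, a rise of 0.56 ± 0.07 with TMM factors that was -0.04 by library totals. Cks2 reached 91.3, 87.4 and 87.5 CPM after LTA, a rise of 0.32 ± 0.05 with TMM factors that was -0.28 by library totals. Mad2l1 (65.1, 64.2 and 61.3 CPM) and Ube2c (62.3, 62.6 and 62.7 CPM) overlapped their untreated values, with log2 fold changes of 0.02 ± 0.06 and -0.02 ± 0.06. The other 43 genes fell, and by library totals Ube2c and Mad2l1 fell too, by 0.62 and 0.58.

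Of the genes that fell after LTA, Pbk fell most, to 3.56, 3.47 and 4.24 CPM (-3.21 ± 0.11). Ttk and Bub1b changed by -2.84 ± 0.21 and -2.82 ± 0.12. Ccna2 went to 11.9, 12.02 and 10.2 CPM (-2.69 ± 0.08) and Cdk1 to 37.5, 36.1 and 37.4 CPM (-1.27 ± 0.06). Cdc20 went to 19.1, 21.4 and 21.9 CPM (-1.30 ± 0.07), Kif11 to 7.55, 6.28 and 6.95 CPM (-2.23 ± 0.10) and Top2a to 44.7, 50.1 and 45.6 CPM (-1.31 ± 0.06). Each of these groups lay wholly below the untreated values. By role the median was lowest for the kinetochore (-2.07) and the central spindle (-2.01), and highest for the cyclins and CDK1 (-1.11).

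Compared directly at 6 h, WT cells held lower levels of 36 of the 47 genes after LPS than after LTA, higher levels of 2, and 9 were not called. The median difference was -0.70, and 14.0% of all tested genes were lower and 17.9% higher (2111 and 2699 genes, or 3409 and 2136 by library totals). The ligands were used at different doses. Nek2 differed most (0.977 to 1.13 CPM after LPS against 2.67, 3.03 and 3.37 after LTA, -1.51 ± 0.27), followed by Kif2c (-1.27 ± 0.21), Ccna2 (-1.18 ± 0.14) and Cdc20 (-1.16 ± 0.10). Mki67 was lower after LPS by 0.92 ± 0.08. Tpx2 and Cenpe went the other way and were higher after LPS. Tpx2 was at 21.97, 19.8 and 17.7 CPM after LPS and 10.8, 12.8 and 10.54 after LTA (0.80 ± 0.10), and Cenpe at 16.2 to 23.1 against 13.2, 14.8 and 12.2 CPM (0.50 ± 0.13). For both genes the ligand groups did not overlap, and both have no annotated exon overlap with another gene. The call for Pbk (-0.85 ± 0.22) was lost without the first library of WT LPS 6 h, at -0.61.

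KO macrophages started from a higher level and lost less. Untreated KO cells had a summed level of 2443 ± 33.5 CPM against 1908 ± 13.1 in untreated WT cells. Of the 47 genes 44 were higher in KO cells and 0 lower, with a median difference of 0.39, while 5.97% of all tested genes were higher and 7.47% lower (902 and 1130 genes, or 1053 and 953 by library totals). The differences were of like size, from 0.12 (Smc4) to 0.55 (Kif20a). Cdk1 was at 112, 115 and 114 CPM in KO against 87.4 to 90.3 in WT cells (0.35 ± 0.05), Cdca3, an adaptor of cell cycle ubiquitin ligases, at 103, 98.8 and 96.5 against 71.6 to 72.8 (0.46 ± 0.05), and Bub1b at 38.9, 42.5 and 38.9 against 27.6 to 28.2 (0.53 ± 0.07). These groups did not overlap. Bub1 (0.21 ± 0.09), Smc2 (0.14 ± 0.07) and Smc4 (0.12 ± 0.08) were not called. Both groups belong to the deeper library set. Summed macrophage markers were at 36520 to 36950 CPM of total in KO and 38790 to 40310 in WT cells, and their part in the result was not tested. Summed progenitor markers were at 52.7 to 53.8 CPM in KO and 51.1 to 56.3 in WT cells.

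In KO cells treated with LPS for 6 h the summed level was 1455 ± 36.6 CPM, 59.6% of untreated KO cells, or 52.1% by library totals. Again 46 genes fell and Cks2 did not pass, but the median was -0.87 and the fall reached 2-fold in 16 genes. Of all tested genes 26.6% were lower and 25.7% higher (4018 and 3890 genes, or 6341 and 2365 by library totals). Ccna2 went from 95.5, 90.04 and 98.2 CPM to 47.9, 45.1 and 43.2 (-1.06 ± 0.06), Cdk1 from 112 to 115 down to 63.0, 67.6 and 71.6 (-0.75 ± 0.05) and Pbk from 43.5, 44.03 and 45.5 to 16.9, 15.8 and 14.6 (-1.50 ± 0.07), the largest fall. Cdc20 was at 66.2, 64.3 and 67.5 CPM before and 53.1, 60.1 and 58.8 after LPS (-0.20 ± 0.05), and Nek2 at 12.99 to 13.4 before and 10.7, 11.1 and 11.1 after (-0.27 ± 0.10). Cks2 was at 81.5 to 89.0 CPM before and 78.0 to 89.0 after (-0.01 ± 0.05), and its change by library totals was -0.20. The fall of Ube2c (-0.14 ± 0.06) was small and was lost with DESeq2 and without the second untreated KO library or the first or second KO LPS 6 h library.

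LTA for 6 h gave KO cells a summed level of 1566 ± 36.1 CPM, 64.1% of untreated, or 56.5% by library totals. Here 44 genes fell, 0 rose, and Cks2 (0.12 ± 0.05, or -0.07 by library totals), Nek2 (-0.11 ± 0.10) and Incenp (-0.11 ± 0.09) were not called. Cks2 was called higher with counts not rounded, in the fit of the untreated and 6 h set alone, with the replicate block and without the first untreated KO library. The median was -0.75, 8 genes fell at least 2-fold, and 26.5% of all tested genes were lower and 25.7% higher (4011 and 3887 genes, or 6207 and 2474 by library totals). Compared directly, LPS gave lower levels than LTA in 3 genes, Kif23 (-0.26 ± 0.07), Top2a (-0.23 ± 0.06) and Cdca8 (-0.21 ± 0.06), and higher levels in 0, against 1.32% and 1.34% of all tested genes (199 and 203 genes, or 246 and 180 by library totals). At an unadjusted p under 0.05 there were 14 genes, DESeq2 also called 3, and the count ranged from 0 to 8 when single libraries were left out, with 0 without the third KO LPS 6 h or the second KO LTA 6 h library, 1 without the second KO LPS 6 h or the third KO LTA 6 h library and 8 without the first KO LPS 6 h library. With no filter on low counts it was 6.

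Set against WT cells under the same treatment, KO cells therefore held far more mitotic mRNA at 6 h. After LPS 45 genes were higher in KO cells, 0 lower and 2 not called, with a median of 2.05 and 36 genes at least 2-fold higher, while 32.7% of all tested genes were higher and 30.6% lower (4951 and 4625 genes, or 9268 and 2191 by library totals). Nek2 differed most (10.7 to 11.1 CPM in KO against 0.977 to 1.13 in WT cells, 3.36 ± 0.19), followed by Ccna2 (43.2 to 47.9 against 4.34 to 5.64, 3.18 ± 0.10). Ttk, Bub1b, Kif2c, Anln and Pbk were each higher by 2.91 to 3.05. The groups of these genes lay far apart. Mad2l1 was at 40.8, 45.9 and 45.6 CPM in KO and 42.6, 50.4 and 49.8 in WT cells (-0.11 ± 0.06), and Cenpe at 21.7, 16.8 and 18.3 against 23.1, 17.9 and 16.2 (-0.01 ± 0.11), so these 2 genes overlapped between genotypes, but by library totals both were called higher in KO cells, by 0.41 and 0.52. Mad2l1 was instead called lower in KO cells with relative log expression factors, with DESeq2 and without the first WT LPS 6 h library. The difference of Tpx2 (0.24 ± 0.09) was called but was lost with relative log expression factors, with DESeq2 (0.16 in both) and without single libraries, as were the calls for Kif4 and Mki67.

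After LTA 44 genes were higher in KO cells, 2 lower and 1 not called, with a median of 1.42, while 30.5% of all tested genes were higher and 28.0% lower (4604 and 4237 genes, or 8906 and 1836 by library totals). Bub1b differed most (20.8, 21.2 and 22.6 CPM in KO against 3.33, 4.22 and 4.24 in WT cells, 2.45 ± 0.13). Ccna2 was at 46.5, 50.4 and 47.9 against 10.2 to 12.02 CPM (2.08 ± 0.08). Mki67 was lower in KO cells, at 31.8, 34.6 and 31.8 CPM against 46.99 to 57.5 (-0.66 ± 0.08). Mad2l1 was also lower, at 46.7, 50 and 47.6 against 61.3 to 65.1 CPM (-0.40 ± 0.06), but was at 0.04 by library totals. Cks2 was not called (0.05 ± 0.05), and was called at 0.49 by library totals.

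**Figure D4:**
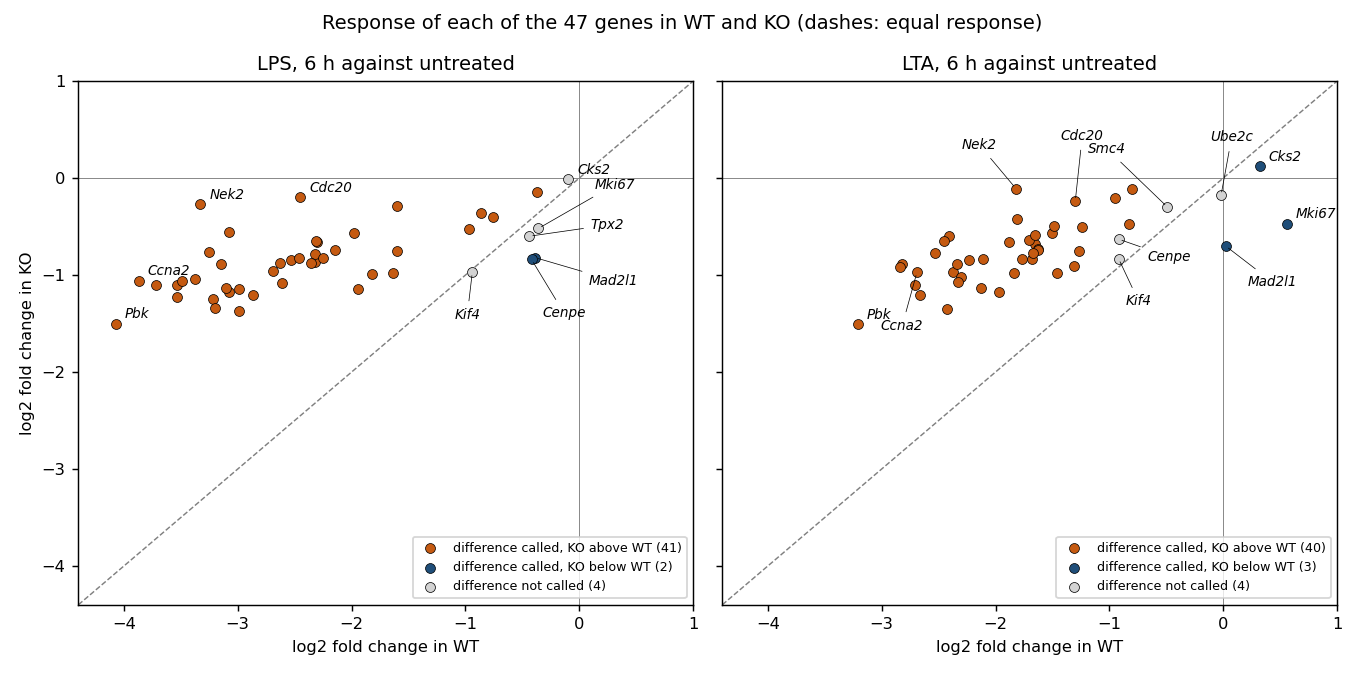
Log2 fold change after 6 h of LPS (left) or LTA (right) in WT cells (horizontal axis) and KO cells (vertical axis) for each of the 47 genes, scaled by TMM; colour gives the test of the difference between the 2 responses. Most points lie above the diagonal, and of the genes called lower in KO cells Mad2l1 and Cenpe after LPS and Cks2 after LTA change sign by library totals, while Mki67 and Mad2l1 after LTA do not.

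The responses themselves were compared with a test of the difference, the KO response minus the WT response. After LPS 41 genes had a higher value in KO cells, that is a smaller fall, 2 had a lower one and 4 were not called, with a median of 1.63, while 27.0% of all tested genes were higher and 23.5% lower (4082 and 3559 genes, or 8452 and 1647 by library totals). The difference was 3.06 ± 0.23 for Nek2, 2.81 ± 0.12 for Ccna2, 2.62 ± 0.31 for Ttk, 2.57 ± 0.17 for Pbk and 2.25 ± 0.10 for Cdc20. Mad2l1 (-0.43 ± 0.08) and Cenpe (-0.42 ± 0.14) fell more in KO cells, and both differences were 0.08 by library totals. The call for Cenpe was lost without the first WT LPS 6 h library (-0.31) or the second KO LPS 6 h library (-0.34). Cks2 (0.09 ± 0.08), Kif4 (-0.03 ± 0.21), Tpx2 (-0.16 ± 0.11) and Mki67 (-0.16 ± 0.11) were not called. Without the third WT LPS 6 h library Mki67 and Tpx2 were called at -0.29 and -0.28, while by library totals both were called at 0.34, Kif4 at 0.47 and Cks2 at 0.60.

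After LTA 40 genes had a higher value in KO cells, 3 a lower one and 4 were not called, with a median of 1.00, while 24.8% of all tested genes were higher and 20.1% lower (3752 and 3035 genes, or 7971 and 1262 by library totals). The difference was 1.92 ± 0.15 for Bub1b, 1.71 ± 0.15 for Pbk, 1.71 ± 0.18 for Nek2 and 1.71 ± 0.10 for Ccna2. Mki67 moved in opposite directions, from 43.1 to 47.5 CPM down to 31.8 to 34.6 in KO cells and up in WT cells as given above, a difference of -1.03 ± 0.10 that was -0.61 by library totals. Mad2l1 was at -0.72 ± 0.08, or -0.30 by library totals. Cks2 was at -0.21 ± 0.07, but at 0.21 by library totals, and its call was lost without the first untreated KO library (-0.17) and with no filter on low counts (-0.16). Ube2c (-0.16 ± 0.08, or 0.26 by library totals), Cenpe (0.29 ± 0.15), Kif4 (0.09 ± 0.20) and Smc4 (0.19 ± 0.12) were not called.

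Whether the genotype difference itself depended on the ligand was tested as KO minus WT after LPS against KO minus WT after LTA. It was larger after LPS in 26 genes, smaller in 2 and not called in 19, with a median of 0.52, while 9.14% of all tested genes were higher and 13.5% lower (1382 and 2043 genes, or 2304 and 1664 by library totals). Nek2 (1.35 ± 0.29), Cdc20 (1.19 ± 0.12), Kif2c (1.12 ± 0.23) and Ccna2 (1.09 ± 0.15) led. Tpx2 (-0.89 ± 0.13) and Cenpe (-0.71 ± 0.16) went the other way, and these 2 genes were also the ones that stood higher after LPS than after LTA in WT cells.

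**Figure D5:**
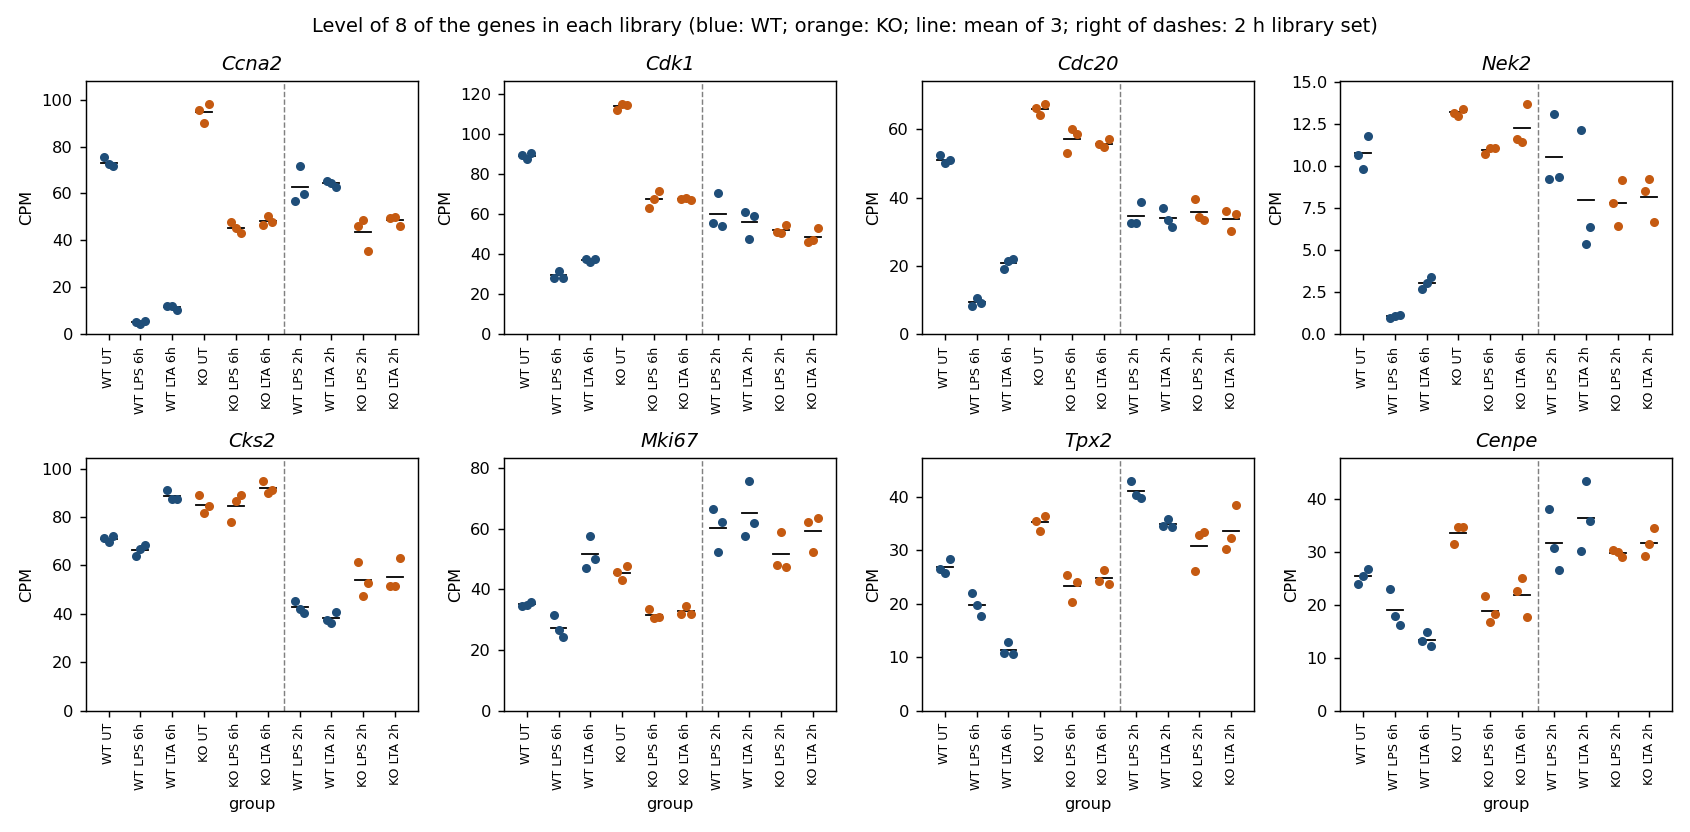
CPM in every library for 8 genes, with a line at the mean of 3 libraries. Ccna2, Cdk1, Cdc20 and Nek2 are lowest in WT cells at 6 h and stay higher in KO cells, Cks2 and Mki67 do not follow them after LTA, and Tpx2 and Cenpe are lower after LTA than after LPS in WT cells.

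At 2 h the picture differed, with the limit that every comparison with untreated cells also compares library sets. The summed level after LPS for 2 h was 1690 ± 22.1 CPM in WT cells, 88.6% of untreated, and 1448 ± 49.7 in KO cells, 59.3% of untreated. After LTA for 2 h it was 1750 ± 95.6 CPM in WT cells (91.7%) and 1569 ± 33.6 in KO cells (64.2%). The summed level in KO cells was thus about the same share of untreated at 2 h and at 6 h, while that of WT cells was 32.0% and 43.8% at 6 h.

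Against untreated WT cells, LPS for 2 h gave 22 lower and 9 higher genes, with a median of -0.22 (25.5% and 19.5% of all tested genes), and LTA for 2 h gave 17 lower and 9 higher, with a median of -0.20 (23.9% and 19.0%). Without the first or the third WT LPS 2 h library the 9 became 5, as did the 9 of LTA without the second WT LTA 2 h library. Kif2c (-1.41), Kif20a (-1.17) and Pbk (-1.01) were lowest after LPS, and Mki67 (0.79) highest. In KO cells LPS for 2 h gave 40 lower and 0 higher genes, with a median of -0.81 (30.4% and 26.8%, 4590 and 4051 genes, or 5441 and 3385 by library totals). LTA gave 38 lower and 2 higher, Smc4 and Mki67, with a median of -0.68 (29.7% and 26.3%, 4490 and 3973 genes, or 5100 and 3498 by library totals). The call for Smc4 was lost by library totals and without any 1 of the 6 libraries of that comparison. Ttk (-2.26) was lowest after LPS and Kif20a (-1.70) after LTA. Erythroid markers, at 5600 CPM or more in 1 library set and at most 0.69 in the other, differ between the same groups, and their part in these results was not tested.

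Within the 2 h set, where both genotypes share the library set, KO cells had lower levels than WT cells in 13 genes after LPS, higher in 0, with a median of -0.29, against 7.24% and 9.11% of all tested genes (1095 and 1377, or 1485 and 913 by library totals). Ttk was at 2.12, 2.15 and 4.32 CPM in KO and 5.53, 9.67 and 7.12 in WT cells (-1.40 ± 0.41), where the KO values stand for 3, 6 and 8 counts. Kif11 was at 10.6, 16.1 and 16.2 CPM against 31.4, 20.5 and 22.9 (-0.72 ± 0.18), and Ccna2 at 46.0, 48.6 and 35.6 against 56.6, 71.7 and 59.6 (-0.51 ± 0.11). The groups of these 3 genes did not overlap. Racgap1 (-0.40 ± 0.14) and Tpx2 (-0.38 ± 0.14) were called as well, and the calls for Ttk, Kif11, Racgap1 and Tpx2 were each lost without at least 1 single library, Kif11 without the first WT library alone. That for Ccna2 was kept in all 6 such fits. At an unadjusted p under 0.05 there were 20 genes, and the count of 13 became 6 without the second or the third WT library or the first KO library, and 8 without the third KO library. Without the second KO library Cks2 was called higher.

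After LTA for 2 h, KO cells were lower in 4 genes, Ncapg (-0.65 ± 0.20), Anln (-0.50 ± 0.16), Kif23 (-0.44 ± 0.13) and Ccna2 (-0.40 ± 0.11), and higher in Cks2 (0.51 ± 0.12), with a median of -0.18 over the 47 genes. Among all tested genes 5.21% were lower and 7.83% higher (788 and 1184 genes, or 1047 and 836 by library totals). Cks2 was at 51.5, 51.4 and 63.0 CPM in KO and 37.6, 36.4 and 40.7 in WT cells, with no overlap. At an unadjusted p under 0.05 there were 14 genes. The count of 5 became 8 with relative log expression factors or DESeq2, 10 by library totals and 11 when only the 2 h libraries were fitted, and it fell to 3 without the first KO library. Without single libraries the call for Anln was lost in 4 of 6 fits, those for Ncapg and Kif23 in 2 each, and those for Ccna2 and Cks2 in 0. Between LPS and LTA at 2 h, 0 of the 47 genes were called in either genotype by edgeR's quasi-likelihood test or by DESeq2, with medians of 0.04 in WT and -0.12 in KO cells and 1 gene at an unadjusted p under 0.05 in each. Among all tested genes 1.1% were higher and 0.0992% lower in WT, and 1.14% and 0.258% in KO cells (172 and 39 genes, or 136 and 62 by library totals).

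The genotype difference after 2 h was also set against that in untreated cells, a comparison chosen after the data were seen, in which set differences that act alike on both genotypes cancel. With LPS it was lower in 32 genes and higher in 0, with a median of -0.69, while 7.9% of all tested genes were lower and 10.0% higher (1195 and 1513 genes, or 1726 and 1065 by library totals). With LTA it was lower in 27 genes and higher in 0, with a median of -0.57, against 6.33% and 9.02% (957 and 1364 genes, or 1324 and 1003 by library totals). Ttk changed most with both ligands (-1.83 with LPS and -1.15 with LTA), then Ndc80 (-1.17) and Bub1b (-1.14) with LPS and Ncapg (-1.02) with LTA. The call for Ttk with LTA was lost without the second WT library or without the second or the third KO library. KO cells thus stood above WT cells in 44 genes when untreated, below them in 13 genes after LPS for 2 h, and above them in 45 after LPS for 6 h. The shares of all tested genes in the same directions were 5.97%, 7.24% and 32.7%. The count of 13 was 6 without the second WT LPS 2 h library, and 18 by library totals or with only the 2 h libraries fitted.

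The rest of the division machinery was followed in lists written by name. Of 80 other mitosis genes 74 fell and 6 rose in WT cells after LPS for 6 h, with a median of -2.36 (76 and 2 by library totals), and 72 fell and 5 rose in KO cells, with a median of -0.91. Securin (Pttg1), which holds separase inactive until anaphase, rose in WT cells from 57.9, 54.9 and 58.9 CPM to 269, 272 and 284.8 after LPS (2.27 ± 0.05) and to 117, 114 and 115 after LTA (1.01 ± 0.05), and was at 61.3, 60.5 and 62.6 CPM in KO cells after LPS. Its target separase, Espl1, fell in the same libraries as given above. Of the 15 subunits of the anaphase-promoting complex, whose activator Cdc20 fell, 7 were lower and 3 higher in WT cells after LPS, with a median of -0.13, beside 36.1% lower and 36.6% higher among all tested genes. By library totals all 15 were lower, with a median of -0.82. Of 52 DNA replication genes 51 fell in WT cells after LPS (median -2.34) and 52 after LTA (median -2.17), and 52 fell in KO cells after either ligand (medians -1.07 and -0.91). In untreated cells 13 of the 52 were higher in KO cells, with a median of 0.11, against 44 of the 47 mitosis genes with a median of 0.39.

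Regulators known to act on such promoters were measured as well. Of 19 tested genes of the MuvB, MYB and retinoblastoma family list 15 fell and 4 rose in WT cells after LPS, with a median of -1.32 (18 and 0 by library totals), and 14 fell and 2 rose in KO cells, with a median of -0.48. B-MYB (Mybl2), the activating partner of MuvB, went from 6.42, 7.97 and 6.23 CPM to 0.122, 0.469 and 0 in WT cells after LPS, and from 6.37, 7.05 and 6.82 to 3.38, 2.87 and 3.00 in KO cells (-1.13 ± 0.16). The WT values after LPS stand for 1, 4 and 0 counts, where 3 counts make 0.338 to 0.366 CPM, so the fall was called but its size is not given. E2f1 went from 47.2, 45.5 and 45.8 CPM to 10.1, 12.5 and 12.96 in WT cells (-1.95 ± 0.08) and fell by 0.27 ± 0.06 in KO cells. The E2F genes E2f2, E2f6, E2f7 and E2f8 also fell in both genotypes, E2f8 by 2.79 ± 0.09 in WT and 1.12 ± 0.06 in KO cells, as did their partners Tfdp1 and Tfdp2. E2f3 (0.47), E2f4 (0.22) and Rbl1 (p107, 0.46) rose in WT cells with TMM factors but were at -0.22, -0.47 and -0.24 by library totals, and E2f5 (0.89) was at 0.20 and not called by library totals. In KO cells E2f3 and E2f4 rose by 0.41 and 0.29, E2f5 was at -0.04, not called, and Rbl1 fell by 0.91. The retinoblastoma gene Rb1 fell by 1.32 ± 0.10 in WT and 0.65 ± 0.08 in KO cells and Rbl2 (p130) by 1.19 ± 0.12 and 0.46 ± 0.09. Mybl1 fell by 2.47 ± 0.25 and 0.62 ± 0.17. With TMM factors Lin9, Lin37, Lin52 and Rbbp4, core subunits of MuvB, fell by less than 2-fold in WT cells after LPS, by 0.55, 0.48, 0.39 and 0.47.

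The 7 CDK inhibitors did not move as a group, with 4 higher and 1 lower in WT cells after LPS (3 and 3 by library totals) and 2 higher and 4 lower in KO cells. p21 (Cdkn1a) rose in WT cells from 478, 431 and 402 CPM to 2643, 3065 and 3061 after LPS (2.74 ± 0.07) and to 2932, 2753 and 3173 after LTA (2.76 ± 0.07). In KO cells it went from 386, 383 and 414 to 694, 779 and 690 CPM after LPS (0.87 ± 0.06). p27 (Cdkn1b) rose in WT cells after LPS by 1.34 ± 0.07 and fell in KO cells by 0.29 ± 0.08. p18 (Cdkn2c), an inhibitor of CDK4 and CDK6, fell in WT cells from 81.9, 83.1 and 85.4 CPM to 9.64, 10.3 and 9.70 after LPS (-3.08 ± 0.08) and in KO cells by 1.33 ± 0.05. p15 (Cdkn2b), of the same family, rose by 1.77 ± 0.38 in WT and 2.91 ± 0.27 in KO cells from 3 to 8 counts in each untreated library. Cdkn2d rose by 0.15 ± 0.06 in WT cells with TMM factors, was at -0.55 by library totals, and fell by 0.50 ± 0.06 in KO cells. Cdkn1c was at -0.25 ± 0.14 in WT cells, not called, and fell by 0.23 ± 0.10 in KO cells, and Cdkn2a was called in neither genotype, at 2 to 7 counts in each untreated library.

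Of the G1 genes, cyclin D2 (Ccnd2) rose in WT cells from 83.0, 86.9 and 91.1 CPM to 932, 983 and 895 after LPS (3.43 ± 0.05) and fell in KO cells from 60.01, 62.5 and 58.0 to 27.9, 27.6 and 27.9 (-1.11 ± 0.06). Cyclin D1 (Ccnd1) fell in both genotypes, by 3.44 ± 0.17 in WT and 1.51 ± 0.14 in KO cells, and cyclin D3 (Ccnd3) by 0.28 ± 0.07 and 0.69 ± 0.07. Their kinases fell in both as well, Cdk4 by 1.38 ± 0.05 and 0.37 ± 0.04 and Cdk6 by 0.58 ± 0.05 and 0.66 ± 0.05. Myc fell in WT cells by 0.94 ± 0.09 and rose in KO cells by 1.89 ± 0.07 after LPS. After LPS for 6 h p21 thus rose in both genotypes and p18 fell in both, while p27, cyclin D2 and Myc changed in opposite directions.

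The summed level of the 6 progenitor markers, all detected, fell as that of the mitosis genes did. In WT cells it went from 51.1 to 56.3 CPM of total untreated to 12.6 to 16.01 after LPS and 12.1 to 15.1 after LTA for 6 h. In KO cells it went from 52.7 to 53.8 untreated to 28.9 to 35.4 and 31.4 to 33.1. Single markers did not all follow the sum. By library totals, of the 5 tested, 3 were lower and 0 higher in WT cells after LPS, and 2 and 0 after LTA. In KO cells 2 were lower and 1 higher after LPS, and 2 lower and 2 higher after LTA. Of all 15119 tested genes, 9630 were lower and 2450 higher by library totals in WT cells after LPS, and 9414 and 2375 after LTA. The same counts in KO cells were 6341 and 2365 after LPS, and 6207 and 2474 after LTA. Their part in the result was not tested. Neutrophil, B cell and T and NK cell markers summed to at most 38.8, 4.43 and 3.07 CPM in any of the untreated and 6 h libraries. Within the promoters described above, the 29 genes with a CHR spelling had a median fall of 2.45 in WT cells after LPS for 6 h. The 10 without one had a median fall of 1.98, and the ranges overlapped widely (-3.72 to -0.36 and -3.33 to -0.1). In KO cells the medians were -0.88 and -0.85, and the response differed between genotypes by medians of 1.63 and 1.39. The split by CCAAT ran the other way in WT cells after LPS, with medians of -2.31 in 30 genes with it and -2.87 in 9 without. These splits were not tested.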

How the data were processed

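Gene expression was measured by RNA-seq in 30 libraries, and the authors deposited 1 table of expected counts per gene, in which 25.2% of the values above 0 were not whole. The submitters' processing notes name fastp 0.24.0, STAR 2.7.11, SAMtools 1.22.1 and featureCounts of Subread 2.1.1 with GRCm38; for the annotation and the strand setting, neither is given in the sources used here. Symbols and coordinates came from GENCODE M21, which named 26304 of the 32361 identifiers, and promoters from RefSeq GRCm38.p6.

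Counts were rounded and fitted with edgeR 4.0.16 (R 4.3.3): TMM factors, a minimum count of 10 with a total of 15, 1 coefficient for each of 10 groups over all 30 libraries, the robust quasi-likelihood test and Benjamini-Hochberg adjustment over 15119 genes, with 0.05 as the threshold. The fit was tested on simulated data. Libraries held 10641070 to 13521660 counts, or 1334784 to 2658329 at 2 h, and 3 counts made 0.222 to 0.282 or 1.13 to 2.25 CPM, which covers counting error only. Alternatives were relative log expression factors, library totals, no filter, counts not rounded and DESeq2 1.42.0. Others were the contrast's library set alone, the replicate number within each genotype as a block and leaving out each library.

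The genes, lists and tests were chosen with earlier results of these data known. Genes named by rule were the 2 with most counts in each role, the extremes of each comparison, those called against the majority and those not called where 5 or fewer were, and, for LPS at 6 h, every CDK inhibitor, G1 and MuvB list gene tested; the remaining named genes were chosen after their values were seen. Lin54 was not analysed here.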

Additional observations from a re-analysis of the deposited data

Results flagged for a closer look

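The effects below differed between genotypes, ligands or times by a test of the difference itself with edgeR's quasi-likelihood model. The response to 6 h of treatment differed between KO and WT cells in 43 of the 47 genes for LPS and in 43 for LTA. Among all tested genes 27.0% were higher and 23.5% lower for LPS, and 24.8% and 20.1% for LTA. For LPS the values ran from -0.43 in Mad2l1, which was 0.08 by library totals, to 3.06 in Nek2. For LTA they ran from -1.03 in Mki67 to 1.92 in Bub1b. The genotype difference at 6 h differed between the ligands in 28 genes, from -0.89 in Tpx2 to 1.35 in Nek2. Beside this, 9.14% of all tested genes were higher and 13.5% lower.

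The genotype difference at 2 h differed from that in untreated cells in 32 genes with LPS and in 27 with LTA. Among all tested genes 7.9% were lower and 10.0% higher with LPS, and 6.33% and 9.02% with LTA. With LPS the called values ran from -1.83 in Ttk to -0.44 in Cenpa, whose call was lost without the second WT LPS 2 h library. With LTA they ran from -1.15 in Ttk to -0.36 in Mad2l1. The call for Mad2l1 was lost with the replicate block, with no filter on low counts and without 7 of the single libraries, and that for Ttk without 3 of them. The 2 h libraries belong to the shallower set, and an effect of that set that differs between genotypes cannot be told apart from an effect of treatment here.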

How the results depend on the processing

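Of the values for single genes under the alternatives, 5292 kept their direction and side of the threshold, 124 lost the call, 67 gained it and 6 reversed. The 6 reversals came with library totals: Cks2 at -0.28 and Mki67 at -0.04 after LTA for 6 h in WT cells, Mad2l1 at 0.04 between genotypes after LTA for 6 h, Cenpe at 0.08 and Mad2l1 at 0.08 for the difference in the LPS response, and Cks2 at 0.21 for that in the LTA response. Library totals scale all genes of a library alike, and the cause of the shift was not tested.

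The 13 genes called between genotypes after LPS for 2 h ranged from 6 to 10 without single libraries. They became 18 with library totals and 18 in the fit of the 2 h set alone. The 5 called after LTA for 2 h became 8 with relative log expression factors, 8 with DESeq2, 10 with library totals, 11 in the fit of the 2 h set alone and 3 to 5 without single libraries. The 3 called between LPS and LTA in KO cells at 6 h became 6 with no filter and 0 to 8 without single libraries. The median between LPS and LTA at 2 h in WT cells, 0.04, ranged from -0.04 to 0.02 without single libraries, with -0.04 without the second LPS library and -0.01 without the first LTA library. The other counts of called genes, both directions together, stayed within 1.5 times; some smaller counts in 1 direction moved more and are given beside the results. Cdkn2d, E2f3, E2f4 and Rbl1 also changed direction by library totals in WT cells after LPS. In the 2 h libraries 3 counts made 1.13 to 2.25 CPM of total, against 0.222 to 0.282 in the others, and the effect of depth on the calls was not tested.

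With the replicate number within each genotype as a block, 46 genes were called after LPS for 6 h in WT cells. After LTA for 6 h in KO cells 45 were called, and no count moved by more than 1.5 times. Libraries of the same number within a genotype had deviations correlated from -0.345 to 0.272, so the numbers were not taken to pair the samples.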
